A study of Rattus norvegicus with 6 samples.

Results

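The scavenger and endocytic receptors described here were chosen by gene symbol as a list of 10 genes: Msr1, Olr1, Cd36, Mrc1, Cd163, Stab1, Scarb1, Lrp1, Megf10 and the endocytic adaptor Dab2. Of these 10 symbols, 9 were found among the 30560 genes of the count tables, and Cd36 was not matched by symbol and is not analysed here. The data are single-nucleus RNA counts from hemispheres of male wild-type Wistar rats aged 12 weeks, collected 48 h after a Sham operation or a permanent middle cerebral artery occlusion (MCAO) made with an intraluminal filament. The left and right hemispheres of 4 Sham-operated rats gave the libraries Sham L and Sham R, 3 rats with moderate infarctions gave mMCAO contra and mMCAO ipsi, and 4 rats with severe infarctions gave sMCAO contra and sMCAO ipsi, where ipsi is the infarcted hemisphere and contra the opposite one. The rats of a library were pooled, so each of the 3 groups (Sham, MCAO contra, MCAO ipsi) holds 2 libraries. Sham L and Sham R share their rats, and within MCAO contra and MCAO ipsi one library is moderate and the other severe. The p-values for differences between groups therefore measure the spread between such libraries, not between animals. Where the library or the rat pool entered a fit as a block, the p-values measure the spread left after that block. The tests that compare classes of nuclei have the library as such a block. Their p-values do not measure a spread between animals either.

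Scavenger receptors are surface proteins of phagocytes and vessel cells that bind modified lipoproteins, dying cells and debris and carry them into the cell. Msr1 (class A) and Olr1 (LOX-1, class E) take up modified low-density lipoprotein, Mrc1 is the macrophage mannose receptor, Cd163 clears haemoglobin bound to haptoglobin, and Stab1 is a stabilin of sinusoidal endothelium and some macrophages. Scarb1 is the receptor for high-density lipoprotein, Lrp1 is a large endocytic receptor of the LDL receptor family, Megf10 is an engulfment receptor with which astrocytes take up synapses and apoptotic debris, and Dab2 is the clathrin adaptor that loads LDL receptor family members into coated pits. After an infarction, resident microglia and macrophages that arrive from the blood both clear dead tissue.

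RefSeq promoters (build GRCr8, which is not the build of the counts) were held for 7 of the 10 genes, of which 6 are measured. They were searched on both strands for GAGGAA, the core of the PU box bound by the myeloid factor Spi1, and for TGANTCA, the AP-1 motif. Over the 250 bases before the start, 23.3% of 33469 promoters held the first and 6.34% the second. Olr1 held 1 match of each, Stab1 held 1 PU box and Mrc1 held 2, while Dab2, Lrp1 and Cd163 held none of either. The 3 promoters shown belong to genes that were high in myeloid nuclei. They are given from 250 bases before the start to the start itself, 5′ to 3′ on the strand of the gene, with the matches in capitals. The Olr1 window lies on the minus strand at chr4:164634548-164634797, with its PU box beginning 46 bases and its AP-1 match 30 bases before the start. The Mrc1 window lies on the plus strand at chr17:82157475-82157724, with PU boxes beginning 180 and 35 bases before the start. The Dab2 window lies on the plus strand at chr2:57272050-57272299. A match describes these letters only and says nothing of binding.
Olr1: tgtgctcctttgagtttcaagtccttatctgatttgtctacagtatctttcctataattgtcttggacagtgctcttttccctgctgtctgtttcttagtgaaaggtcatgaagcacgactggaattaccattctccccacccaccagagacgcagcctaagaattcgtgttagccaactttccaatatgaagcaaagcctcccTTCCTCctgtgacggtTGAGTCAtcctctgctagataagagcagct
Mrc1: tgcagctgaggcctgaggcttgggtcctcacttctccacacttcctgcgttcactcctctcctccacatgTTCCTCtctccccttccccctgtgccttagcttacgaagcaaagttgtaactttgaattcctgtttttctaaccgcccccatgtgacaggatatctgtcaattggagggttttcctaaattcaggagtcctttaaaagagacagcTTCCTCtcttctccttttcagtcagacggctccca
Dab2: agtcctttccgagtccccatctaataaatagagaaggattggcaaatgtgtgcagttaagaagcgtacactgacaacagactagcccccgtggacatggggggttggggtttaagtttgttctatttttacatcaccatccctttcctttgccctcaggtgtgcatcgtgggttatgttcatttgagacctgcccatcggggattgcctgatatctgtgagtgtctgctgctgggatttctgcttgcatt

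The libraries held 8774 to 14508 nuclei and 33012945 to 52513380 unique molecular identifiers (UMIs, 1 per captured RNA molecule). Nuclei were assigned to a class by marker genes, none of which is a member of the list, and are named after those markers with the ending "-like". Of 73649 nuclei kept, 66410 carried markers of 1 class. Microglia-like nuclei numbered 10, 7, 144, 67, 475 and 492, and macrophage-like nuclei 0, 0, 6, 13, 170 and 810, in Sham L, Sham R, mMCAO contra, sMCAO contra, mMCAO ipsi and sMCAO ipsi. Another 948 myeloid nuclei had too few or too mixed lineage markers to be placed in either. Of the 3142 myeloid nuclei, 352 lay within 1 UMI of the microglia limit and 228 within 1 UMI of the macrophage limit. Astrocyte-like nuclei numbered 109 to 525 and OPC-like nuclei (oligodendrocyte precursors) 153 to 445 per library. Because both Sham libraries had under 20 microglia-like and no macrophage-like nuclei, these were compared with Sham only within all myeloid nuclei, of which Sham L had 22 and Sham R 21. Levels are CPM, which scales the UMIs of a gene to a fixed total of UMIs in every class and library. In microglia-like nuclei of Sham L and Sham R the myeloid marker list was at 5624 and 6639 CPM and the neuron list at 3265 and 2822 CPM. In those of mMCAO ipsi and sMCAO ipsi the lists were at 12136 and 15750 CPM and at 1310 and 360 CPM. The identity of the Sham myeloid nuclei is thus less sure, and its part in the comparisons with Sham was not tested. The plot of members by class and library shows where each gene was found.

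**Figure D1:**
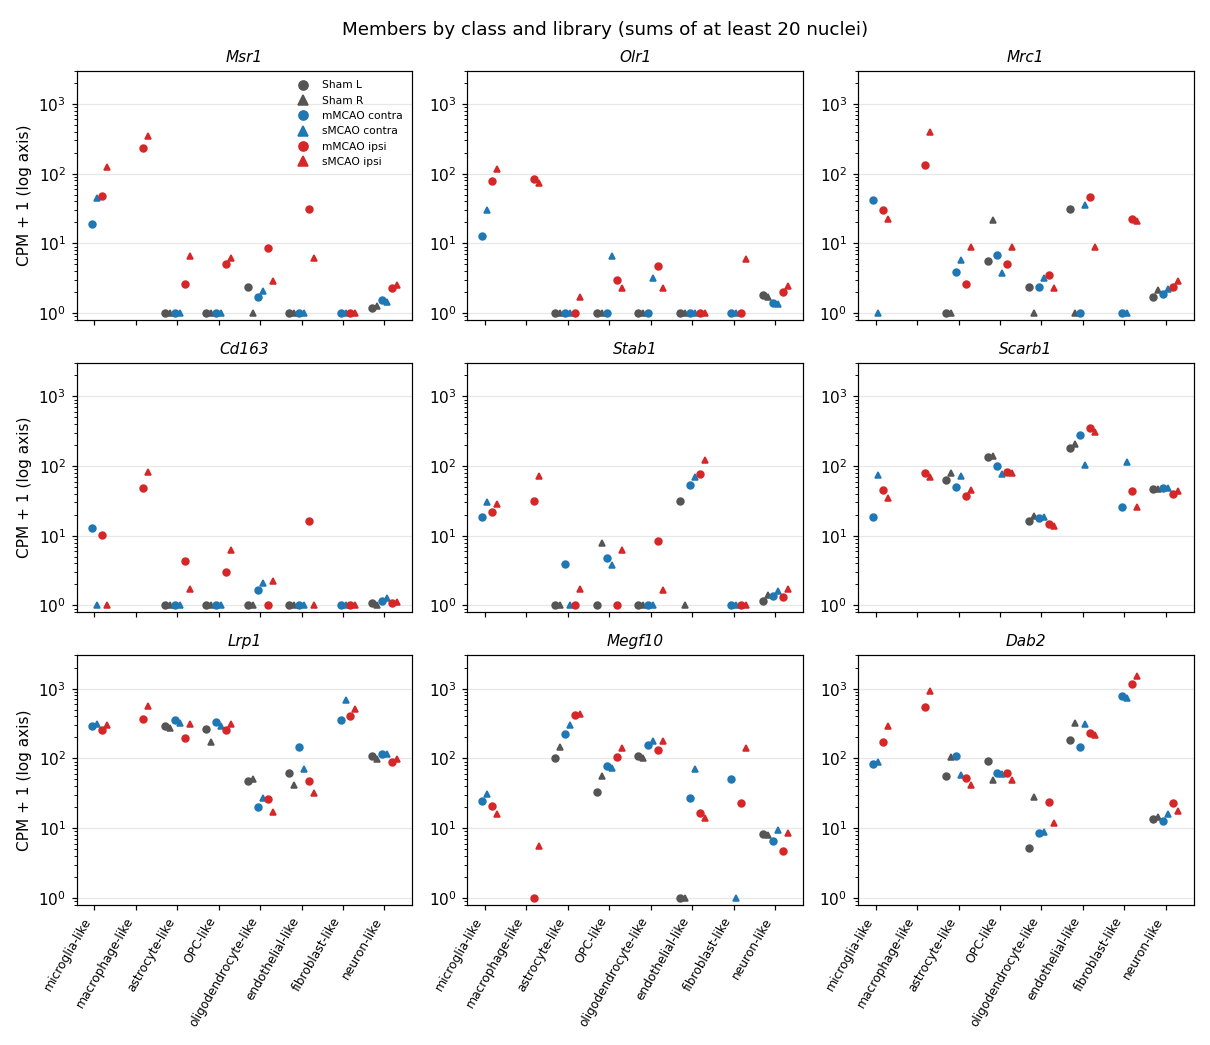
Levels of the 9 measured members (1 panel each) in 8 classes of nuclei; the y axis is CPM + 1 on a log axis, each point is 1 library, colours mark the group, and circles and triangles mark the 2 libraries of a group. Msr1, Olr1 and Mrc1 reached their highest levels in myeloid nuclei, Megf10 in astrocyte-like nuclei, and Dab2 in fibroblast-like and macrophage-like nuclei. In Sham L, Megf10 was slightly higher in oligodendrocyte-like than in astrocyte-like nuclei.

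Msr1 was a gene of myeloid nuclei, and no UMI of it was found in the myeloid nuclei of Sham. In all myeloid nuclei its level was 0 (Sham L) and 0 (Sham R), 34.6 (mMCAO contra) and 125 (sMCAO contra), and 88.3 (mMCAO ipsi) and 236 (sMCAO ipsi) CPM. Both Sham values were below all MCAO values, and the 2 MCAO groups overlapped. At 3 counts, the limit of a count of 0 was 92.4 CPM in Sham L and 194 CPM in Sham R. Both mMCAO values lay under these limits and sMCAO contra under that of Sham R, so depth does not resolve their order against Sham. The Sham sums were shallow, and with 3 counts as the limit of a count of 0 over both Sham libraries (62.5 CPM), the pooled MCAO ipsi level of 186 CPM was at least 2.97-fold higher. This bound rests on single libraries: it was 1.41 without sMCAO ipsi, 3.77 without mMCAO ipsi and 2.01 without Sham R, and without Sham L the limit (194 CPM) was above the MCAO ipsi level, so that no bound could be given. In microglia-like nuclei alone no bound could be given, since the pooled MCAO ipsi level of 88.1 CPM was under the Sham limit of 107 CPM. Macrophage-like nuclei numbered 0 in both Sham libraries, 170 in mMCAO ipsi and 810 in sMCAO ipsi. Their larger share and a higher level per nucleus cannot be told apart in the sum over all myeloid nuclei. The edgeR quasi-likelihood test did not call Msr1 in MCAO ipsi against Sham (adjusted p = 0.192). In microglia-like nuclei Msr1 was at 17.7 and 44.2 CPM in the MCAO contra libraries and at 47.0 and 125 CPM in the MCAO ipsi libraries (log2 fold change 1.63, SE 0.76, adjusted p = 0.643). In macrophage-like nuclei it reached 235 CPM in mMCAO ipsi (95% Poisson interval 167 to 321, 39 UMIs) and 343 CPM in sMCAO ipsi (305 to 383, 303 UMIs), which was 5.00 times (3.04 to 8.28) and 2.74 times (2.17 to 3.50) the microglia-like level of the same library. These intervals cover counting error only. Fibroblast-like nuclei had no Msr1 UMI in any library.

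Olr1 was higher in microglia-like nuclei of both infarcted hemispheres than of both opposite ones, and differed from Msr1 in that macrophage-like nuclei were not above microglia-like nuclei. Its level in microglia-like nuclei was 11.8 (mMCAO contra) and 29.5 (sMCAO contra), and 77.3 (mMCAO ipsi) and 114 (sMCAO ipsi) CPM. The groups did not overlap, but the MCAO contra values rest on 2 UMIs each. The log2 fold change was 2.38 (SE 0.56, adjusted p = 0.643), so the difference did not pass. In macrophage-like nuclei Olr1 was at 84.3 CPM in mMCAO ipsi and 73.5 CPM in sMCAO ipsi, 1.09 times (0.557 to 1.9999) and 0.64 times (0.46 to 0.90) the microglia-like level. Over all myeloid nuclei the 6 libraries gave 0, 129, 8.6, 22.0, 78.0 and 117 CPM in the same order, where the value of Sham R is 2 UMIs, and MCAO ipsi differed from MCAO contra by a log2 fold change of 2.77 (SE 0.71, adjusted p = 0.615). Astrocyte-like, vascular and OPC-like nuclei held 0 to 2 Olr1 UMIs per library.

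No member was called in microglia-like nuclei in MCAO ipsi against MCAO contra (edgeR, 0 of 7 tested). Over all genes 0.0% of 7743 were called there, 576 had an unadjusted p under 0.05, and DESeq2 called 0. With the rat pool as a replicate block, edgeR called 8 genes over all genes and no member. The microglia-like result depended on the moderate library and on the filter. The fit without mMCAO ipsi leaves sMCAO ipsi as the only infarcted library and assumes that it varies like the other libraries. In that fit Dab2, Olr1 and Msr1 were called higher in the infarcted hemisphere. Without the filter on low counts Dab2 (adjusted p = 0.0159) and Olr1 (adjusted p = 0.0148) passed. The share of all genes called is not given for either fit, so these calls are not read as results about the members. The summed level of the macrophage marker list in microglia-like nuclei was 183 and 280 CPM in the MCAO contra and 373 and 570.4 CPM in the MCAO ipsi libraries, against 4035 and 5007 CPM in macrophage-like nuclei of MCAO ipsi. Its part in the differences was not tested.

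Mrc1 was higher in macrophage-like than in microglia-like nuclei of both infarcted libraries. In macrophage-like nuclei it was at 132 CPM in mMCAO ipsi (83.0 to 200.6, 22 UMIs) and 398 CPM in sMCAO ipsi (358 to 442, 352 UMIs). In microglia-like nuclei it was at 41.3 (mMCAO contra) and 0 (sMCAO contra), and 28.8 (mMCAO ipsi) and 21.7 (sMCAO ipsi) CPM. The groups of microglia-like nuclei overlapped (log2 fold change -0.22, SE 0.84, adjusted p = 0.969). The macrophage-like level was 4.60 times (2.38 to 8.98) the microglia-like one in mMCAO ipsi and 18.3 times (11.1 to 32.4) in sMCAO ipsi, each from 1 library and with counting error only. Over all myeloid nuclei Mrc1 stood at 61.6, 0, 56.2, 80.7, 66.0 and 209.7 CPM in the 6 libraries, highest in sMCAO ipsi, with no call in any comparison.

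Cd163 was found mainly in macrophage-like and undetermined myeloid nuclei. In macrophage-like nuclei it was at 48.2 CPM in mMCAO ipsi (8 UMIs) and 81.4 CPM in sMCAO ipsi (72 UMIs). Microglia-like nuclei of the same libraries held 6 and 0 Cd163 UMIs, fibroblast-like nuclei held none, and vascular nuclei held 5 in Sham R, 2 in mMCAO ipsi and 0 in the other libraries. In undetermined myeloid nuclei the level was 142 CPM in mMCAO contra and 72.3 CPM in sMCAO contra. It was 2.9 CPM in mMCAO ipsi and 67.3 CPM in sMCAO ipsi, so that the opposite hemisphere was not below the infarcted one in these sums. The MCAO contra sums held only 56269 and 55315 UMIs from 65 nuclei each. Their Cd163 levels and that of mMCAO ipsi rest on few UMIs, so no direction is read from them. No Cd163 UMI was found in myeloid nuclei of either Sham library, where the limit of a count of 0 (62.5 CPM) is above the pooled MCAO ipsi level of 38.1 CPM. Cd163 did not pass the filter on low counts for the comparisons between groups in myeloid or microglia-like nuclei. Without that filter, MCAO ipsi against MCAO contra gave a log2 fold change of -0.16 over all myeloid nuclei (SE 0.79, adjusted p = 0.952). Against neuron-like nuclei of the same libraries, macrophage-like nuclei of MCAO ipsi were higher by 8.25 on the log2 scale (SE 0.63), in 2 of 2 libraries. This difference is a description only. The nuclei were chosen by macrophage markers, the fit held 2 libraries, and Cd163 entered it through its macrophage-like counts.

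Stab1 was shared by endothelial-like and myeloid nuclei. In endothelial-like nuclei it was at 30.1 (Sham L) and 0 (Sham R), 52.7 (mMCAO contra) and 68.6 (sMCAO contra), and 76.3 (mMCAO ipsi) and 122 (sMCAO ipsi) CPM. Both MCAO ipsi values were above all others, but 5 of the 6 sums held at most 5 UMIs and the gene did not enter the test there. Fibroblast-like nuclei held no Stab1 UMI, and in sMCAO ipsi the fibroblast-like level was at most 0.16 times that of endothelial-like nuclei. In microglia-like nuclei Stab1 was at 17.7, 29.5, 21.2 and 27.2 CPM in mMCAO contra, sMCAO contra, mMCAO ipsi and sMCAO ipsi, with overlapping groups (log2 fold change 0.10, SE 0.64). In macrophage-like nuclei it was at 30.1 CPM (5 UMIs) in mMCAO ipsi and 70.1 CPM (62 UMIs) in sMCAO ipsi.

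**Figure D2:**
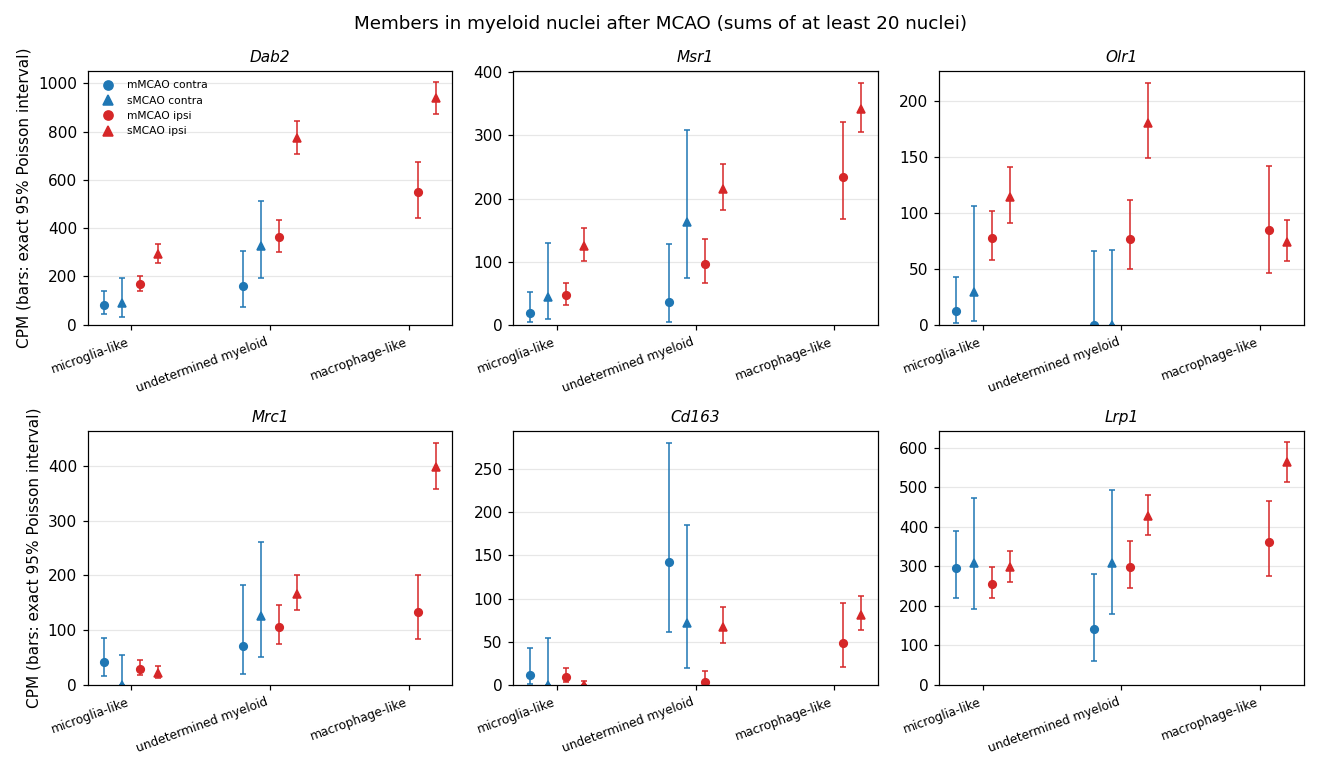
Levels (CPM, linear y axis from 0) of 6 members in microglia-like, undetermined and macrophage-like myeloid nuclei of the 4 MCAO libraries; points are single libraries with exact 95% Poisson intervals, and sums of under 20 nuclei are left out. Dab2, Msr1, Mrc1 and Lrp1 are higher in macrophage-like than in microglia-like nuclei of the same library, Olr1 is not, and Cd163 is near 0 in microglia-like nuclei.

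Scarb1 was lower in OPC-like nuclei of the MCAO libraries of both hemispheres than in Sham, and its call in MCAO ipsi against Sham was not stable. Its level there was 135 (Sham L) and 138 (Sham R), 98.2 (mMCAO contra) and 75.7 (sMCAO contra), and 80.2 (mMCAO ipsi) and 77.7 (sMCAO ipsi) CPM. Both Sham libraries were above all MCAO libraries, and the 2 MCAO groups overlapped. MCAO ipsi against Sham gave a log2 fold change of -0.84 (SE 0.27, edgeR adjusted p = 0.0457). The call stood close to the threshold, and it was lost without Sham L (adjusted p = 0.262), Sham R (adjusted p = 0.168), sMCAO contra (adjusted p = 0.0566) or sMCAO ipsi (adjusted p = 0.150). DESeq2 (adjusted p = 0.366), the stricter gate (adjusted p = 0.163), a fit without the filter on low counts (adjusted p = 0.124) and a fit on only the 4 libraries compared (adjusted p = 0.0520) did not call it either. In astrocyte-like nuclei Scarb1 was at 61.9, 78.7, 48.9, 71.9, 36.2 and 43.9 CPM in the 6 libraries (log2 fold change -0.79, SE 0.44, adjusted p = 0.279). Endothelial-like nuclei, where the receptor was highest, gave 180.5, 203, 277, 103, 351 and 306 CPM, with both infarcted libraries on top and wide counting intervals (log2 fold change 0.82, SE 0.49, adjusted p = 0.411). The changes in OPC-like and endothelial-like nuclei differed by 1.997 on the log2 scale (SE 0.51, adjusted p = 0.0623), which did not pass.

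Lrp1 was broadly expressed and did not change beyond the spread in most classes. In astrocyte-like nuclei it was at 294 (Sham L) and 275 (Sham R), 354 (mMCAO contra) and 326 (sMCAO contra), and 197 (mMCAO ipsi) and 310.4 (sMCAO ipsi) CPM. The lowest value was that of mMCAO ipsi, and sMCAO ipsi lay among the others (MCAO ipsi against Sham, log2 fold change -0.20, SE 0.26, adjusted p = 0.708). Without sMCAO ipsi, which leaves a lone infarcted library, Lrp1 was called lower in MCAO ipsi than in MCAO contra (log2 fold change -0.80). In OPC-like nuclei the levels were 266, 173, 333, 292, 251 and 315 CPM, with overlapping groups. In microglia-like nuclei they were 295, 309.6, 256 and 297 CPM in mMCAO contra, sMCAO contra, mMCAO ipsi and sMCAO ipsi (log2 fold change -0.19, SE 0.21, adjusted p = 0.819). Macrophage-like nuclei had 361 CPM in mMCAO ipsi and 563 CPM in sMCAO ipsi, 1.41 times (1.03 to 1.90) and 1.89 times (1.61 to 2.23) the microglia-like level. Fibroblast-like nuclei were at a similar level, with 349 (mMCAO contra) and 688 (sMCAO contra), and 409 (mMCAO ipsi) and 504 (sMCAO ipsi) CPM. Endothelial-like nuclei had 145, 68.6, 45.8 and 31.2 CPM in the same order, from 2 to 12 UMIs each. Oligodendrocyte-like nuclei had the lowest levels, with 46.8, 49.4, 19.0, 26.3, 25.1 and 16.0 CPM. Both Sham libraries were the highest of these, and MCAO ipsi against Sham gave a log2 fold change of -1.26 (SE 0.35, adjusted p = 0.0720), which did not pass. It passed without mMCAO ipsi (log2 fold change -1.53) and without the filter on low counts (adjusted p = 0.0212). MCAO contra against Sham gave -1.09 there (SE 0.34, adjusted p = 0.516), and it passed without mMCAO ipsi or sMCAO ipsi. The share of all genes called is not given for the fits without a library or without the filter. Calls in these fits are not read as results about Lrp1.

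Megf10 rose in astrocyte-like and OPC-like nuclei of the infarcted hemisphere and was the member with the clearest change. In astrocyte-like nuclei its level was 101 (Sham L) and 144 (Sham R), 222 (mMCAO contra) and 297 (sMCAO contra), and 412 (mMCAO ipsi) and 438 (sMCAO ipsi) CPM. The 3 groups did not overlap, with Sham lowest, MCAO contra between and MCAO ipsi highest. MCAO ipsi against Sham gave a log2 fold change of 1.81 (SE 0.27, edgeR adjusted p = 0.00133), and the call stood in all alternatives run, also when any 1 library was left out. MCAO ipsi against MCAO contra gave 0.70 (SE 0.20, adjusted p = 0.0363) and with the rat pool as a replicate block 0.70 (adjusted p = 0.0281). This second call was lost without mMCAO contra (0.50, adjusted p = 0.358), without sMCAO contra (0.90, adjusted p = 0.0592), in the fit on only the 4 libraries (adjusted p = 0.0526) and with DESeq2 (adjusted p = 0.231). MCAO contra against Sham gave 1.10 (SE 0.29, adjusted p = 0.392). It passed without mMCAO ipsi or sMCAO ipsi, in fits for which the share of all genes called is not given.

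In OPC-like nuclei Megf10 was at 31.6 (Sham L) and 55.2 (Sham R), 77.004 (mMCAO contra) and 72.9 (sMCAO contra), and 102 (mMCAO ipsi) and 139.7 (sMCAO ipsi) CPM, again with no overlap between the groups. MCAO ipsi against Sham gave a log2 fold change of 1.53 (SE 0.35, adjusted p = 0.00478), which was lost without Sham L (1.14, adjusted p = 0.175) and with DESeq2 (1.49, adjusted p = 0.0935). MCAO ipsi against MCAO contra gave 0.64 (SE 0.24, adjusted p = 0.101), and it passed without mMCAO ipsi (0.80). In oligodendrocyte-like nuclei Megf10 was at 109, 98.7, 154, 177, 129 and 175 CPM, where both Sham libraries were lowest and the 2 MCAO groups overlapped (MCAO ipsi against Sham, log2 fold change 0.55, SE 0.21, adjusted p = 0.178). Without mMCAO ipsi the difference passed (0.76), and MCAO contra against Sham (0.66, adjusted p = 0.516) passed without mMCAO ipsi or sMCAO ipsi. The share of all genes called is not given for the fits without a library. Differences that passed only in such fits are not read as results about Megf10. Neuron-like nuclei stayed between 3.7 and 8.3 CPM, and macrophage-like nuclei of MCAO ipsi held 0 and 4 UMIs.

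The change of Megf10 differed in 3 classes from that in neuron-like nuclei, whose low level is given above. Against neuron-like nuclei, the MCAO ipsi against Sham change was larger by 2.37 on the log2 scale in astrocyte-like nuclei (SE 0.36, edgeR interaction adjusted p = 5.1e-05), by 2.02 in OPC-like nuclei (SE 0.42, adjusted p = 0.00668) and by 1.08 in oligodendrocyte-like nuclei (SE 0.30, adjusted p = 0.0305). Among all genes, the same test passed for 3.12%, 1.02% and 3.48% of 11995 in those 3 class pairs. The OPC-like and oligodendrocyte-like differences were lost when nuclei with markers of more than 1 class were kept (1.61, adjusted p = 0.0735 and 0.97, adjusted p = 0.106). Between astrocyte-like and oligodendrocyte-like nuclei the change differed by -1.30 (SE 0.39, adjusted p = 0.0782), which did not pass, and no other member passed in any of the 15 class pairs.

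Depth and the level of neuron markers moved with the groups in these glial classes. The median astrocyte-like nucleus held, in UMIs, 789 (Sham L) and 616 (Sham R), 985 (mMCAO contra) and 868 (sMCAO contra), and 1278 (mMCAO ipsi) and 2301 (sMCAO ipsi). The summed level of the neuron marker list in astrocyte-like nuclei (16 of 18 markers found) was 2692, 2216, 1612, 1840, 1181 and 557 CPM in the same order, and that of the astrocyte list ran from 7899 CPM in Sham L to 13510 CPM in sMCAO ipsi. In OPC-like nuclei the neuron list was at 2493 CPM in Sham L and 1059 CPM in sMCAO ipsi, and in oligodendrocyte-like nuclei at 1976, 1884, 1144, 1262, 1011 and 302 CPM in the 6 libraries. The part of these shifts in the member changes was not tested.

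**Figure D3:**
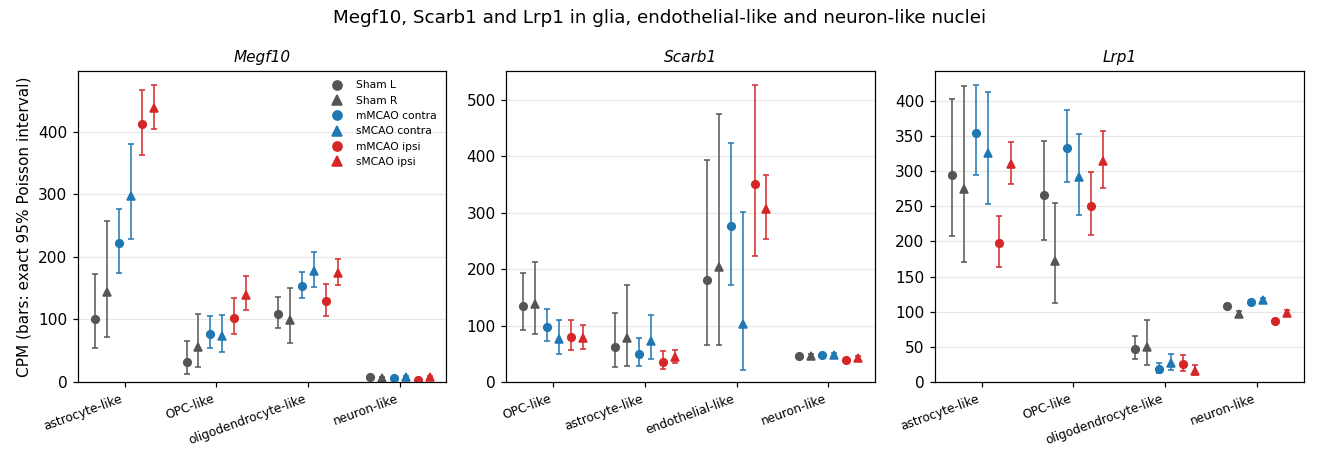
Levels (CPM, linear y axis from 0) of Megf10, Scarb1 and Lrp1 in 4 classes each, by library, with exact 95% Poisson intervals; colours mark the group and symbols the 2 libraries of a group. Megf10 rises from Sham (101 and 144 CPM) over MCAO contra to MCAO ipsi (412 and 438 CPM) in astrocyte-like nuclei, and Scarb1 in OPC-like nuclei is higher in both Sham libraries than in the MCAO libraries.

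In all, edgeR called 1 of 4 tested members in astrocyte-like nuclei in MCAO ipsi against Sham, where 13.4% of all genes were called, and 2 of 4 in OPC-like nuclei, where 9.63% were called. It called 0 of 4 in oligodendrocyte-like nuclei (4.52% of genes), 0 of 3 in vascular nuclei as a whole (3.54%), 0 of 2 in endothelial-like nuclei (0.193%) and 0 of 6 in myeloid nuclei (0.0%, with 1300 of 5517 genes at an unadjusted p under 0.05). DESeq2 called 205 genes and no member in myeloid nuclei. In MCAO ipsi against MCAO contra edgeR called 1 member in astrocyte-like nuclei (10.6% of genes) and 0 in OPC-like (8.61%), oligodendrocyte-like (0.0227%), vascular (0.167%), endothelial-like (0.0644%) and myeloid nuclei (0.0%). With the rat pool as a replicate block those gene counts moved from 2 to 21 in oligodendrocyte-like, from 7 to 89 in vascular, from 1 to 3 in endothelial-like and from 0 to 7 in myeloid nuclei, with the same members called. In MCAO contra against Sham no member was called in any class, and of all genes 0.11% were called in OPC-like and 0.0239% in vascular nuclei and 0.0% in the others. In those others the number of genes with an unadjusted p under 0.05 was 640 in myeloid, 506 in astrocyte-like, 833 in oligodendrocyte-like, 61 in endothelial-like and 2956 in neuron-like nuclei, and DESeq2 called 22 genes in myeloid and 97 in neuron-like nuclei and 0 in the rest. In myeloid nuclei of MCAO ipsi against MCAO contra, 440 genes had an unadjusted p under 0.05 and DESeq2 called 2.

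Dab2 was highest in fibroblast-like and macrophage-like nuclei and its differences in myeloid nuclei did not pass the test. Its level in all myeloid nuclei was 61.6 (Sham L) and 129 (Sham R), 117 (mMCAO contra) and 249.5 (sMCAO contra), and 279.5 (mMCAO ipsi) and 682 (sMCAO ipsi) CPM. Both MCAO ipsi libraries were above all others, and each Sham value rests on 2 UMIs. MCAO ipsi against Sham gave a log2 fold change of 2.57 (SE 0.83, adjusted p = 0.141). Without mMCAO ipsi, Dab2 (log2 fold change 3.13), Msr1 and Mrc1 were called against Sham, and these 3 with Olr1 were called against MCAO contra. Calls over all genes also rose in that fit against Sham, as given in the last paragraph. The member calls are therefore not read as a result about the members. Macrophage-like nuclei made up 0 of 22 and 0 of 21 myeloid nuclei in Sham, 170 of 987 in mMCAO ipsi and 810 of 1752 in sMCAO ipsi. A larger share of macrophage-like nuclei and a higher level per nucleus cannot be told apart in the sum over all myeloid nuclei.

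Within the lineages, Dab2 in microglia-like nuclei was at 82.7 (mMCAO contra) and 88.5 (sMCAO contra), and 168 (mMCAO ipsi) and 293 (sMCAO ipsi) CPM, with no overlap between the groups (log2 fold change 1.37, SE 0.37, adjusted p = 0.643). In macrophage-like nuclei it was at 548 CPM in mMCAO ipsi (441 to 673) and 938 CPM in sMCAO ipsi (875 to 1004), which was 3.26 times (2.44 to 4.34) and 3.20 times (2.75 to 3.73) the microglia-like level. In fibroblast-like nuclei it was at 773 (mMCAO contra) and 726 (sMCAO contra), and 1185 (mMCAO ipsi) and 1527 (sMCAO ipsi) CPM, and the Sham sums held only 2 and 4 UMIs from 8 and 5 nuclei. The fibroblast-like level was 5.18 times (2.89 to 9.87) and 7.17 times (5.60 to 9.26) the endothelial-like level in mMCAO ipsi and sMCAO ipsi. The fibroblast-like class is less pure than the endothelial-like one. Its astrocyte marker list was at 2205 to 2712 CPM, against 122 to 617 CPM in endothelial-like nuclei. Of 247 fibroblast-like nuclei, 60 lay within 25% above the threshold. The part of this in the Dab2 levels was not tested. Over all vascular nuclei Dab2 was at 238, 284, 265, 409, 487 and 579.6 CPM, highest in both infarcted libraries (log2 fold change against Sham 1.02, SE 0.32, adjusted p = 0.0979), and this passed without mMCAO ipsi (1.16). Against MCAO contra the log2 fold change was 0.71 (SE 0.29, adjusted p = 0.361), and without mMCAO ipsi it was called at 0.87. The share of all genes called in that fit is not given, so its calls are not read as results about Dab2. Fibroblast-like nuclei made up 8 of 79 and 5 of 58 vascular nuclei in Sham, 44 of 147 and 28 of 74 in MCAO contra, and 52 of 163 and 110 of 423 in MCAO ipsi, so that a larger share of them and a higher level per nucleus cannot be told apart in the vascular sum. Endothelial-like nuclei alone gave 180.5, 325, 145, 309, 229 and 213 CPM (log2 fold change -0.10, SE 0.50). In astrocyte-like nuclei Dab2 was at 54.2, 105, 106, 57.5, 50.9 and 40.4 CPM. MCAO ipsi against MCAO contra gave a log2 fold change of -0.97 there (SE 0.35, adjusted p = 0.0960). It was called lower without mMCAO ipsi (-1.14), again with the share of all genes not given.

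Against neuron-like nuclei of the same libraries, most tested members were higher in microglia-like and OPC-like nuclei. A member was tested only where its counts passed the filter on low counts, and high counts in the class itself help it to pass. Msr1, Olr1, Cd163 and Stab1 did not enter the test in astrocyte-like and OPC-like nuclei. The numbers of members higher are therefore a description only, also beside the share of all genes. Neuron-like nuclei were deeper, with a median of 2444 to 6899 UMIs per library against 686 to 1252 in microglia-like nuclei of MCAO, and the part of free RNA in these differences was not tested. In microglia-like nuclei of the 4 MCAO libraries 7 of 8 tested members were higher, where 22.4% of all genes were. The log2 difference was 5.46 (SE 0.34) for Olr1, 5.05 (SE 0.38) for Msr1, 4.89 (SE 0.43) for Stab1, 3.50 (SE 0.48) for Mrc1 and 2.61 (SE 0.26) for Dab2, while Scarb1 was lower by a log2 difference of -0.85 (SE 0.25). In astrocyte-like nuclei 3 of 5 were higher (20.4% of genes), led by Megf10 with 5.01 (SE 0.31). In OPC-like nuclei 5 of 5 were higher (16.8% of genes), with Megf10 at 3.45 (SE 0.24) and Scarb1 at 0.80 (SE 0.13). In oligodendrocyte-like nuclei 1 of 6 was higher (23.0% of genes), which was Megf10 with 4.26 (SE 0.17), and 3 were lower, Lrp1 with -2.19 (SE 0.18), Scarb1 with -1.75 (SE 0.12) and Dab2 with -0.68 (SE 0.22). In endothelial-like nuclei 3 of 5 were higher (17.7% of genes), Dab2 with 3.06 (SE 0.28), Mrc1 with 2.70 (SE 0.65) and Scarb1 with 1.73 (SE 0.26). Lrp1 was lower there with -1.56 (SE 0.32, edgeR adjusted p = 2.2e-05). Dab2 and Scarb1 were above neuron-like nuclei in 6 of 6 libraries, but Mrc1 in only 4 of 6, and in 3 of 6 under the stricter gate. In microglia-like nuclei Mrc1 was above neuron-like nuclei in 3 of 4 libraries. These differences depend on the TMM scaling. Without it, the shares of all genes higher and lower moved from 22.4% and 28.8% to 41.3% and 17.8% in microglia-like, from 20.4% and 23.3% to 31.9% and 16.3% in astrocyte-like, from 16.8% and 19.9% to 25.2% and 14.1% in OPC-like, from 23.0% and 30.9% to 29.1% and 26.6% in oligodendrocyte-like and from 17.7% and 28.2% to 30.7% and 15.2% in endothelial-like nuclei. Scarb1 in microglia-like nuclei (-0.15, adjusted p = 0.626) and Dab2 in oligodendrocyte-like nuclei (-0.46, adjusted p = 0.116) were then no longer called lower, and Mrc1 in astrocyte-like nuclei (1.58, adjusted p = 0.0148) and Msr1 in oligodendrocyte-like nuclei (1.37, adjusted p = 0.0393) were called higher. Under the stricter gate the call of Dab2 in oligodendrocyte-like nuclei was lost as well (-0.47, adjusted p = 0.159).

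Neuron-like nuclei themselves had 1 of 8 tested members called in MCAO ipsi against Sham (6.47% of genes) and 2 of 8 in MCAO ipsi against MCAO contra (2.98% of genes, and 819 instead of 491 genes with the rat pool as a replicate block). These were Msr1, at 0.17 to 1.6 CPM (log2 fold change 2.56 against Sham, adjusted p = 0.0086), and against MCAO contra Msr1 (1.47, adjusted p = 0.0367) and Olr1 (1.61, adjusted p = 0.0319), the latter at 0.36 to 1.4 CPM. The Msr1 call against Sham was lost without Sham L (adjusted p = 0.135) or Sham R (adjusted p = 0.0552), and the calls against MCAO contra without any one library of Sham or MCAO contra. Without sMCAO ipsi, which leaves 1 infarcted library, Dab2 (0.69) and Megf10 (-0.97) were called against Sham as well, and against MCAO contra Dab2 (0.80) and Megf10 (-0.81) were called. The share of all genes called in that fit is not given, so these calls are not read as results about the members. Of the pathway genes described further on, 12 of 98 tested were called higher in neuron-like nuclei in MCAO ipsi against Sham (4.77% of all genes) and 7 of 98 in MCAO ipsi against MCAO contra (2.11% of all genes), with 0 lower in either. Lgals3, a lectin of activated phagocytes, had 0.15 and 0.18 CPM in the Sham libraries (L, then R), 0.43 CPM in each contralateral MCAO library, and 2.9 and 5.8 CPM in the infarcted ones (mMCAO, then sMCAO; log2 fold change against Sham 4.54, SE 0.44). The largest changes in each list also included the phagocyte genes Clec7a, Clec12a, C1qa, C1qb and C1qc, the ligands Apoe and Mmp9, and Lrp10 and Cav1, of which Apoe reached the highest level, 17.6 CPM in sMCAO ipsi. Myeloid nuclei of the infarcted libraries held 88.3 and 236 CPM of Msr1 and made up 0.15% of the nuclei kept in Sham R and 20.2% in sMCAO ipsi. The neuronal values are at the level of single UMIs per many nuclei, and the part of free RNA in them was not tested.

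Severity could be compared only as 1 library against 1 library, with intervals for counting error and no test. Marker levels also moved between these libraries (mMCAO ipsi, then sMCAO ipsi). The neuron list was at 1186 and 424 CPM in macrophage-like and at 1310 and 360 CPM in microglia-like nuclei. The myeloid list was at 11521 and 13328 CPM and at 12136 and 15750 CPM in the same 2 classes. Their part in the ratios was not tested, and the share of all genes with such ratios is not given here. In macrophage-like nuclei sMCAO ipsi exceeded mMCAO ipsi 3.00 times for Mrc1 (1.95 to 4.86), 1.71 times for Dab2 (1.38 to 2.15), 1.56 times for Lrp1 (1.19 to 2.07) and 1.46 times for Msr1 (1.04 to 2.09). In microglia-like nuclei the ratio was 2.66 for Msr1 (1.75 to 4.13), 1.74 for Dab2 (1.38 to 2.21) and 1.48 for Olr1 (1.03 to 2.13). It was 1.57 for Lrp1 in astrocyte-like nuclei (1.28 to 1.94) and 1.26 in OPC-like nuclei (1.01 to 1.57). In oligodendrocyte-like nuclei it was 1.35 for Megf10 (1.07 to 1.71) and 0.48 for Dab2 (0.23 to 0.99). The intervals of Scarb1 in all 4 classes plotted, of Megf10 in astrocyte-like and OPC-like nuclei and of Olr1 in macrophage-like nuclei included 1. Within classes, between Sham R and Sham L only Lrp1 in neuron-like nuclei had an interval without 1, at 0.90 (0.86 to 0.95), among sums with at least 10 UMIs.

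**Figure D4:**
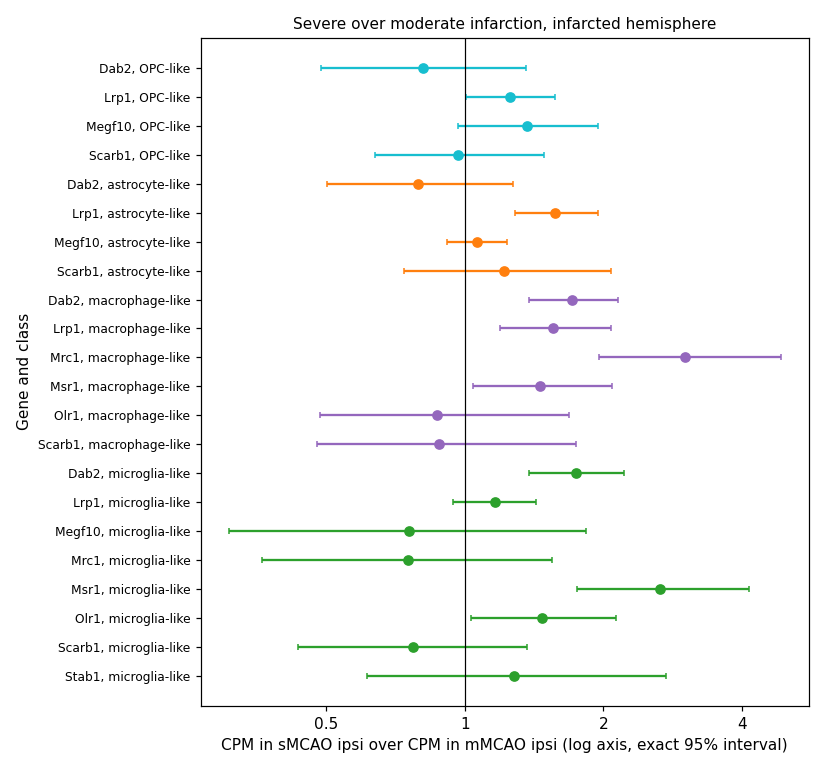
Ratio of the level in sMCAO ipsi to that in mMCAO ipsi (x axis, log scale) for members with at least 10 UMIs in both sums, in microglia-like, macrophage-like, astrocyte-like and OPC-like nuclei; bars are exact 95% intervals for counting error and the line marks a ratio of 1. Mrc1 in macrophage-like nuclei (3.00) and Msr1 in microglia-like nuclei (2.66) lie farthest to the right.

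Of 107 further genes of these pathways, 105 were found and 20 (endothelial-like) to 63 (oligodendrocyte-like) were tested per class outside neurons. In astrocyte-like nuclei 5 of 55 rose and 4 fell in MCAO ipsi against Sham, where 6.71% of all genes rose and 6.73% fell. Among ligands of the receptors, 3 of 7 tested rose. These were the lipoprotein Apoe (193, 209.8, 507, 436, 468 and 702 CPM in the 6 libraries, log2 fold change 1.51, SE 0.27, edgeR adjusted p = 0.0029), the protease inhibitor A2m, an Lrp1 ligand (30.9, 13.1, 17.3, 81.4, 90.4 and 372 CPM, adjusted p = 0.0432), and the plasminogen activator Plat (adjusted p = 0.0211). Plat had no UMI in either Sham library, whose sums held only 129254 and 76273 UMIs. It was at 23.0 (mMCAO contra) and 57.5 (sMCAO contra), and 41.1 (mMCAO ipsi) and 83.6 (sMCAO ipsi) CPM, so the MCAO groups overlapped. Of 9 engulfment genes 1 rose and 2 fell: Dock1, which acts downstream of engulfment receptors, had 665, 616, 671, 723, 1124 and 1144 CPM (log2 fold change 0.77, SE 0.18), its partner Elmo1 fell by 1.80 (SE 0.37) and the adhesion receptor Adgrb1 fell by 1.10 (SE 0.26) on the log2 scale. Of 10 LDL receptor family genes Lrp1b fell by 1.85 on the log2 scale (SE 0.29), of 26 adaptor and coat genes Hip1 fell by 0.99 (SE 0.24), and of 3 other scavenger receptors Scara3 rose by 1.59 (SE 0.49). None of the 6 other lectin family genes passed the filter on low counts in these nuclei. The neuron marker list in astrocyte-like nuclei was at 2692 and 2216 CPM in Sham and 1181 and 557 CPM in MCAO ipsi. Its part in the changes of these pathway genes was not tested.

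In OPC-like nuclei 2 of 57 rose and 3 fell (4.53% and 5.11% of all genes), with the integrin Itgav at 0.89 (SE 0.26) and Dock1 at 0.63 (SE 0.18) higher and Elmo1 (-0.62, SE 0.15) and the endocytic scaffolds Itsn2 (-0.97, SE 0.19) and Amph (-0.65, SE 0.21) lower. Itgav was at 248 and 264 CPM in MCAO contra and at 217 and 311 CPM in MCAO ipsi (mMCAO, then sMCAO). Itsn2 was at 237 and 227 and at 241 and 208 CPM in the same order. The MCAO groups overlapped for Itgav, Dock1 and Itsn2, but not for Elmo1 and Amph. The neuron marker list in OPC-like nuclei was at 2493 and 2492 CPM in Sham and 1506 and 1059 CPM in MCAO ipsi. Its part in the changes of these pathway genes was not tested. In oligodendrocyte-like nuclei 3 of 63 rose and 2 fell (1.2% and 3.32% of all genes). The clathrin assembly gene Picalm had 908, 965, 1138, 1220.4, 1646 and 2644 CPM and a log2 fold change of 1.21 (SE 0.21, adjusted p = 0.0232), Apoe had 1.98 (SE 0.37) and App 0.94 (SE 0.19), while Dnm1, the neuronal dynamin, had -1.89 (SE 0.39) and the adaptor Dab1 -1.79 (SE 0.43). The neuron marker list in these nuclei was at 1976 and 1884 CPM in Sham and 1011 and 302 CPM in MCAO ipsi, and its part in these changes was not tested. In vascular nuclei 1 of 48 was called, Plat, which fell by 1.45 (SE 0.30), where 1.24% of all genes rose and 2.30% fell. The share of fibroblast-like nuclei among vascular nuclei differed between these groups, and its part in this fall was not tested. Among the pathway genes of endothelial-like nuclei, 0 of 20 were called (0.0644% of all genes rose and 0.129% fell). In MCAO ipsi against MCAO contra, 2 of 55 rose and 3 fell in astrocyte-like nuclei (6.21% and 4.39% of all genes). Dock1 rose by 0.67 (SE 0.16) and A2m by 2.43 (SE 0.66), while Hip1 fell by 1.005 (SE 0.20), Lrp11 by 1.42 (SE 0.40) and Adgrb1 by 0.89 (SE 0.23). In OPC-like nuclei 1 of 57 was called, Epn2, an epsin, which fell by 0.73 (SE 0.15), where 4.53% of all genes rose and 4.09% fell. In microglia-like and myeloid nuclei none of 60 and of 53 was called (0.0% of all genes in both). Over 48 sums of class and library, the genes whose levels were most like that of Olr1 were Samsn1, Itgax and Adcy7 (Pearson r of 0.97, 0.94 and 0.91 across sums, given as a description). For Msr1 they were Atp8b4, Clec4a1 and Cd53 (0.94 each), for Mrc1 RGD1565355, Celf1 and RT1-Ba (0.85, 0.85 and 0.84), and for Stab1 Gch1, Alpk3 and Fli1 (0.88, 0.85 and 0.84). For Dab2 they were Svil, Peak1 and Trim25 (0.90, 0.88 and 0.88), for Megf10 Gprc5b, Psat1 and Sox2 (0.86, 0.83 and 0.81), for Scarb1 Gpcpd1, Arl15 and Pcnx1 (0.77, 0.76 and 0.74), and for Lrp1 Rbms3, Pid1 and Arhgef40 (0.77, 0.76 and 0.76). Cd163 had too few UMIs for this. Itgax and Cd53 are on the myeloid marker list that placed the nuclei in classes, so their likeness is in part built in by the gate.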

How the data were processed

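Nuclei of 6 libraries from rat hemispheres were analysed. The authors made the deposited counts with Cell Ranger 7.0.0 from a droplet-based 5' kit on build mRatBN7.2, intronic reads included; they are raw UMI counts. The authors removed free RNA in later steps of their own, which the counts used here do not include. Nuclei with at least 500 UMIs, 250 to 5000 genes and at most 5% mitochondrial UMIs were kept. A nucleus joined a class at 3 or more UMIs from at least 2 markers and 3 to 5 marker UMIs per 1000 UMIs; these limits were set after the densities were seen, and 91 to 6500 nuclei per class lay within 25% of them on either side. Nuclei with markers of more than 1 class (2227), which include doublets, were left out, unless all were vascular. Microglia-like and macrophage-like nuclei needed 2 UMIs of their own list and 2 times those of the other. Of 219 markers 204 were found. Lymphocyte and granulocyte lists reached at most 124 and 32.8 CPM in microglia-like and macrophage-like nuclei. Dendritic cells had no class of their own. Their list was at 47.0 and 132 CPM in microglia-like and at 139 and 209 CPM in macrophage-like nuclei (mMCAO ipsi, then sMCAO ipsi). Libraries shared 1.36% to 2.16% of barcodes.

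UMIs were summed per class and library and tested where both libraries of both groups had 20 nuclei, with edgeR 4.0.16 (R 4.3.3, TMM, filterByExpr, quasi-likelihood F test, Benjamini-Hochberg over all genes tested); calls needed both an adjusted p below 0.05 and a log2 fold change of 0.6 or more in size. An exact permutation test of 2 against 2 libraries cannot go below p = 0.333. Ratios and levels of single libraries have exact 95% intervals, computed with scipy 1.17.1. On simulated counts with a log2 change of 2, the test recovered 25.9% of changed genes in myeloid, 79.5% in astrocyte-like, 81.1% in OPC-like, 83.0% in oligodendrocyte-like, 78.7% in vascular, 62.0% in endothelial-like and 98.0% in neuron-like nuclei. DESeq2 1.42.0, RLE scaling, no filter, other gates, fewer libraries and a replicate block by rat pool were tried; the pairing of MCAO ipsi and MCAO contra comes from the rats, which gave both hemispheres (across genes, the severe minus moderate differences of the 2 hemispheres correlated at 0.231 in neuron-like, 0.137 in microglia-like and -0.0001 to 0.0325 in the other classes tried). The members and lists were chosen with earlier results of these data known. Text names every member, called genes of the pathway lists (up to the 3 largest changes per list and class, except a gene that is not reported here), and for each member with 200 UMIs the 3 genes most alike in log2(CPM + 5).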

Additional observations from a re-analysis of the deposited data

Results flagged for a closer look

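The change of Megf10 between MCAO ipsi and Sham differed from that of neuron-like nuclei by a test of the difference itself in 3 classes. It was larger by 2.37 on the log2 scale in astrocyte-like nuclei, by 2.02 in OPC-like nuclei and by 1.08 in oligodendrocyte-like nuclei, and the last of these rests on a change of 0.55 that was not called within its class and a log2 fold change of -0.48 in neuron-like nuclei that was not called either. Without sMCAO ipsi Megf10 was called lower in neuron-like nuclei, with a log2 fold change of -0.97, and the test of the difference was not run with libraries left out. With 2 libraries in each group, single libraries could not be checked for standing apart from their group.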

How the results depend on the processing

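The number of members called stayed within 1.5 times under most alternatives. This counts 0 calls against 0 as unchanged, and most comparisons called 0 members, so it says little about the called results. The number changed in OPC-like nuclei for MCAO ipsi against Sham from 2 to 1 without the filter on low counts, under the stricter gate and with only the 4 libraries compared. With DESeq2 it changed to 0. For MCAO ipsi against MCAO contra it changed from 1 to 0 in astrocyte-like nuclei with DESeq2 and with only 4 libraries, from 0 to 2 in microglia-like nuclei without the filter, and from 2 to 1 with DESeq2 and to 0 with only 4 libraries in neuron-like nuclei. In oligodendrocyte-like nuclei it changed from 0 to 1 for MCAO ipsi against Sham without the filter and from 0 to 2 for MCAO contra against Sham with only 4 libraries. The cause was not tested. Leaving out 1 library gave 0 to 2 members in OPC-like, oligodendrocyte-like (also for MCAO contra against Sham) and, against MCAO contra, astrocyte-like nuclei, 0 to 3 in myeloid and neuron-like nuclei for MCAO ipsi against Sham and in microglia-like nuclei, 0 to 4 in myeloid and neuron-like nuclei for MCAO ipsi against MCAO contra, 0 to 1 in vascular nuclei, in OPC-like nuclei against MCAO contra and in astrocyte-like nuclei for MCAO contra against Sham. Such a fit assumes that a lone library varies like the others. The share of all genes called is not given beside most of these fits, so their calls are not read as results about the members. With mixed nuclei kept, the difference of the Megf10 change from neuron-like nuclei no longer passed at 1.61 (OPC-like) and 0.97 (oligodendrocyte-like). No called member change reversed its direction under any alternative run.

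The replicate block by rat pool changed no call of a member (the count stayed at 1 in astrocyte-like and 2 in neuron-like nuclei). It could not be fitted against Sham, since Sham rats are another pool, and the stricter gate left too few myeloid nuclei in Sham for a test. Over all genes, counts of calls moved by over 1.5 times in 65 of 137 fits that left out no library. Examples for MCAO ipsi against Sham are 823 calls in astrocyte-like nuclei against 478 with DESeq2, 698 in OPC-like nuclei against 278, and 399 in oligodendrocyte-like and 148 in vascular nuclei against 0 with only 4 libraries. Under the stricter gate Cd163 in sMCAO ipsi over mMCAO ipsi was 13.1 in macrophage-like and 7.504 in all myeloid nuclei, from 1.69 and 3.97.

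Depth and the spread between the infarcted libraries both bear on the myeloid comparisons with Sham: the sums of Sham L and Sham R held 32481 and 15503 UMIs, and the limit of a count of 0 over both was 62.5 CPM, while over all genes leaving out mMCAO ipsi gave 472 genes higher and 539 lower and leaving out sMCAO ipsi 163 and 181, against 0 with all libraries. The bounds of Msr1 with single libraries left out were added after the data were seen.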
